A study of Mus musculus with 3 samples.

Results

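The genes that build microtubules and move along them were read from RNA sequencing of satellite cells, the stem cells of skeletal muscle. The genes were taken by name: rows of the deposited table whose symbol marks a numbered alpha, beta, gamma, delta or epsilon tubulin, a numbered kinesin, a subunit of cytoplasmic dynein or a stathmin. This gave 76 of the 20308 genes in the table: 19 tubulins, 37 kinesins, 16 dynein subunits and 4 stathmins. The 3 libraries form 1 group, so there is no comparison between conditions. They come from mice aged 3 months that carry Pax7-ZsGreen, a reporter in which a green fluorescent protein follows the satellite cell factor Pax7. Hindlimb muscle pooled from several animals was digested with enzymes and about 200000 ZsGreen-positive cells were sorted for each sample, so RNA was taken after both steps. The sample labels name the tibialis anterior, whereas the series description names hindlimb muscles.

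Values are TPM, a unit that divides by transcript length and scales each library to the same sum, so levels can be compared between genes. They are given for replicates 1, 2 and 3 in that order, or as mean ± SD (n = 3). Depth is unknown because TPM keeps no read totals, and a gene at 0 is described as listed at 0. Nothing in the labels ties each library to its own pool of animals. The p-values therefore cover the spread between these 3 samples only, and that spread may be technical. All 10 satellite cell markers (median 295 TPM) lay above 1 TPM in the limma test of level. So did 8 of 12 markers of other muscle cells, a list of endothelial, fibro-adipogenic, leukocyte, mural and fibre genes (median 14.2 TPM). That share, 66.7%, was near the 60.8% of all genes tested, whose median was 11.5 TPM. The other 4, from the fibro-adipogenic, leukocyte and fibre genes, were not decided. The highest of the list were mural Rgs5 at 64.4 ± 30.0 TPM and endothelial Pecam1 at 40.5 ± 18.1 and Cdh5 at 34.1 ± 1.99 TPM. Of the satellite cell markers, Pax7 averaged 51.4 ± 5.22 TPM and Calcr, the lowest, 31.5 ± 3.45 TPM. In bulk RNA, fewer cells of a type and less RNA per cell cannot be told apart.

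Microtubules are hollow polymers of paired alpha and beta tubulin, seeded by gamma tubulin at the centrosome. Kinesins mostly carry cargo outward along them or build the mitotic spindle, and cytoplasmic dynein carries cargo inward together with its activator dynactin. Stathmins bind free tubulin dimers and favour disassembly. In muscle, the microtubule array is rebuilt as myoblasts leave the cell cycle and differentiate, when nucleation moves from the centrosome to the nuclear surface.

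The tubulin isotypes differ most at the end of the coding sequence, which encodes the acidic tail that protrudes from the microtubule. The last 60 coding bases, stop codon included, are shown for abundant beta tubulins because their likeness bears on how well their levels can be separated. Sequences are from the GENCODE M21 transcripts (GRCm38), 5′ to 3′ on the coding strand, and each interval lies within 1 exon. Capitals mark bases that differ from Tubb4b, the most abundant beta tubulin shown, in an alignment of the whole coding sequences.
Tubb4b (chr2:25222308-25222367, minus strand): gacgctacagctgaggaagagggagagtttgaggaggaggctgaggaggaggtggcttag
Tubb2a (chr13:34074468-34074527, minus strand): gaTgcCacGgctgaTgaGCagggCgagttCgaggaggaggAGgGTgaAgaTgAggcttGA
Tubb2b (chr13:34127471-34127530, minus strand): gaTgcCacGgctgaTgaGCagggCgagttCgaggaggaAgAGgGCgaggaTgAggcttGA
Tubb5 (chr17:35834982-35835041, minus strand): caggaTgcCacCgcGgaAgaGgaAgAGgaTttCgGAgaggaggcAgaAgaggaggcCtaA
Tubb2a and Tubb2b each differed from Tubb4b at 17 of the 60 bases. The coding sequence of Tubb5 is shorter, at 1335 bases against 1338 for Tubb4b, so its 60 bases do not cover the same positions throughout, and bases it lacks are not marked. Whole coding sequences were 83.6%, 83.5% and 82.2% identical to Tubb4b. Tubb2a and Tubb2b were 96.5% identical to each other. Among the alpha tubulins, the coding sequence of Tuba1b was 98.3%, that of Tuba1c 97.1% and that of Tuba4a 84.7% identical to Tuba1a. Tuba1a, Tuba1b and Tuba1c are neighbours on chromosome 15 (98949837 to 98953703, 98931425 to 98934565 and 99029891 to 99038110).

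Most tubulin transcript came from a few isotypes. The most abundant gene of the set was Tubb6, the class V beta tubulin, at 895, 894 and 846 TPM in replicates 1, 2 and 3 (879 ± 27.9 TPM), which put it at rank 212 of the 20308 genes. Tuba1a, an alpha tubulin best known from developing neurons, followed at 776, 667 and 646 TPM (696 ± 69.9). Tuba1c, a widely used alpha tubulin, was at 550, 568 and 621 TPM (580 ± 37.0). The ranges of these 3 genes over the libraries did not overlap, so their order was the same in each library. Tubb4b, the class IVB beta tubulin used in most tissues, stood next at 355, 345 and 363 TPM (354 ± 9.17). Tubb2a, a class II beta tubulin, was at 342, 207 and 264 TPM, and its range overlapped that of Tuba1b at 171, 291 and 190 TPM. Tubb2b, the other class II gene, was at 109, 197 and 91.5 TPM, and its range in turn overlapped that of Tuba1b.

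The other isotypes were lower than these in each library. Tuba4a, an alpha tubulin abundant in muscle and brain, was at 42.2, 54.5 and 80.1 TPM. Tubb5, the class I beta tubulin of most dividing cells, was at 51.4, 55.4 and 37.9 TPM, and its range overlapped that of Tuba4a. Tubb4a, a class IVA gene of brain, was at 28.3, 18.4 and 11.2 TPM. Tubb3, the class III isotype of neurons, was listed at 0, 0.46 and 5.44 TPM. Tuba8, a muscle and testis isotype, was listed at 0, 0 and 3.04 TPM, and Tuba3a, a testis isotype, at 0, 0 and 0.56 TPM. Tubb3, Tuba8 and Tuba3a were each highest in replicate 3 and listed at 0 in replicate 1. Tuba3b and Tubb1, the latter the isotype of platelets, were listed at 0 in all 3 libraries.

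Within the beta family, Tubb6 held 50.3%, 52.1% and 52.3% of the summed TPM (51.5% ± 1.10) and Tubb4b 20.8% ± 1.39. Tubb2a held 15.9% ± 3.60, Tubb2b 7.74% ± 3.23 and Tubb5 2.82% ± 0.447. Tubb6 thus took a larger share in each library than all other beta tubulins together. Within the alpha family, Tuba1a held 50.4%, 42.2% and 41.9% (44.9% ± 4.82), Tuba1c 37.3% ± 2.59, Tuba1b 14.0% ± 3.89 and Tuba4a 3.79% ± 1.26. The alpha tubulins summed to 1540, 1581 and 1540 TPM and the beta tubulins to 1781, 1717 and 1620 TPM. The ratio of alpha to beta was 0.864, 0.920 and 0.951, below 1 in each library.

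**Figure D1:**
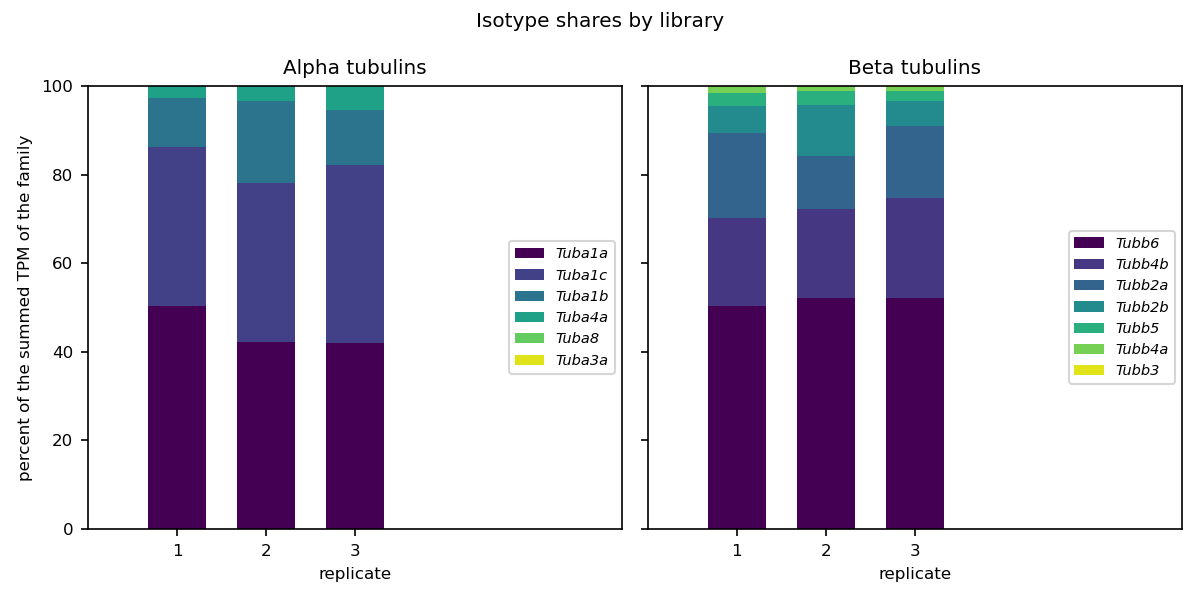
Stacked bars give the percent of the summed TPM of the alpha family (left) and the beta family (right) held by each isotype in replicates 1 to 3; isotypes listed at 0 in all libraries are left out. Tubb6 takes 50.3% to 52.3% of the beta family in each library, and Tuba1a and Tuba1c together take 78.2% to 86.1% of the alpha family.

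The near-identical copies limit these isotype levels. Each gene's longest transcript was cut into 31-base words, and the share of words found in the longest transcript of any other gene was 85.9% for Tuba1b, 78.6% for Tuba1a and 63.9% for Tuba1c. It was 70.4% for Tubb4b, mostly through the processed pseudogene Tubb4b-ps1, 56.4% for Tubb2a and 45.9% for Tubb2b, but 3.94% for Tubb6 and 4.43% for Tubb5. For Tuba4a it was 51.8%, of which 48.0 percentage points were shared with the overlapping gene Stk16. Of the words of Tuba1b, 66.8% occur in the noncoding RNA gene AC157548.1, which is not part of the sum of alpha tubulins below. How reads shared between copies were divided is not given in the sources used here, so the levels of Tuba1a, Tuba1b and Tuba1c are uncertain singly. Summed over these 3 genes, the libraries gave 1497, 1526 and 1457 TPM, the highest 1.05 times the lowest, against spans of 1.2 times for Tuba1a, 1.70 times for Tuba1b and 1.13 times for Tuba1c singly. Tubb2a and Tubb2b summed to 451, 404 and 356 TPM, a span of 1.27 times, against 1.65 and 2.15 times singly. These sums were chosen after the values were seen.

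Ratios of related tubulins were taken within each library on the log2(TPM + 0.1) scale. Tubb5 minus Tubb6 was -4.12, -4.01 and -4.48, so that Tubb6 was 18.4-fold higher on average. Tubb5 minus Tubb4b was -2.79, -2.63 and -3.26, so that Tubb4b was 7.42-fold higher. Tuba1b minus Tuba1a was -2.18, -1.20 and -1.76 (Tuba1a 3.28-fold higher), and Tuba1b minus Tuba1c was -1.68, -0.97 and -1.71 (Tuba1c 2.73-fold higher), subject to the division of shared reads. Each of these differences had the same sign in 3 of 3 libraries. Of the 15 pairs of related genes compared, 14 gave an exact sign-flip permutation p of 0.25 (two-sided, n = 3; 0.268 adjusted over the pairs), the smallest that 3 libraries allow, so no pair could pass 0.05.

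**Figure D2:**
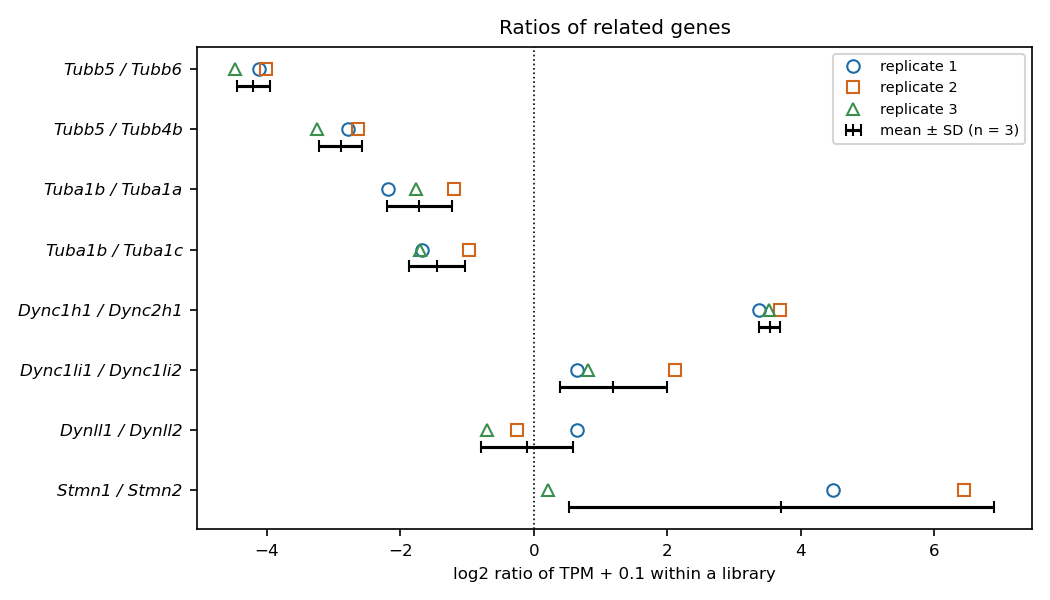
Within-library log2 ratio of TPM + 0.1 for the 8 pairs in which both genes were above 0 in each library; symbols are replicates 1 to 3 and bars are the mean ± SD (n = 3). Dynll1 over Dynll2 falls on both sides of 0, Stmn1 over Stmn2 runs from 0.21 to 6.45, and the other pairs keep their sign with an SD of at most 0.81.

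Levels of all genes were then tested against 1 TPM with limma on the log2(TPM + 0.1) scale, with Benjamini-Hochberg adjustment over the 12822 genes above 0 in at least 1 library. Of the 76 genes, 61 were tested and 15 were listed at 0 in all libraries. Above 1 TPM lay 30 of the 61, or 49.2%, against 60.8% of all genes tested. The median of the 61 was 6.12 TPM, against 11.5 TPM over all genes tested. Below 1 TPM lay 2, against 2.18% of all genes tested, and 29 were not decided. The 30 were 11 tubulins, 8 kinesins, 10 dynein subunits and 1 stathmin, that is 11 of 16 tubulins tested, 8 of 31 kinesins and 10 of 12 dynein subunits. The 2 below were Tube1, epsilon tubulin, at 0, 0 and 0.15 TPM, and Kif4, a chromosome-bound spindle kinesin, at 0, 0.15 and 0 TPM (limma adjusted p = 0.0365 each). Neither call held when any 1 replicate was left out, but those fits called 0 genes of the whole table below 1 TPM. They therefore cannot show whether the 2 calls are stable.

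The centrosomal tubulins were low. Tubg1, the gamma tubulin that seeds microtubules, was at 5.13, 6.63 and 6.81 TPM (6.19 ± 0.922) and lay above 1 TPM (limma adjusted p = 0.00739). Its paralogue Tubg2 was listed at 0 in all 3 libraries, and 23.0% of the 31-base words of Tubg1 occur in Tubg2. Tubd1, delta tubulin of centrioles, was listed at 0, 2.59 and 0 TPM. Of 12 genes of the gamma tubulin ring and its anchors, 7 (58.3%) lay above 1 TPM, near the 60.8% of all genes tested, and 5 were not decided. The highest were the small ring subunit Mzt1 at 49.1 ± 21.4 TPM, the anchor Akap9 at 22.5 ± 7.67 TPM and Mzt2 at 17.2 ± 4.71 TPM.

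**Figure D3:**
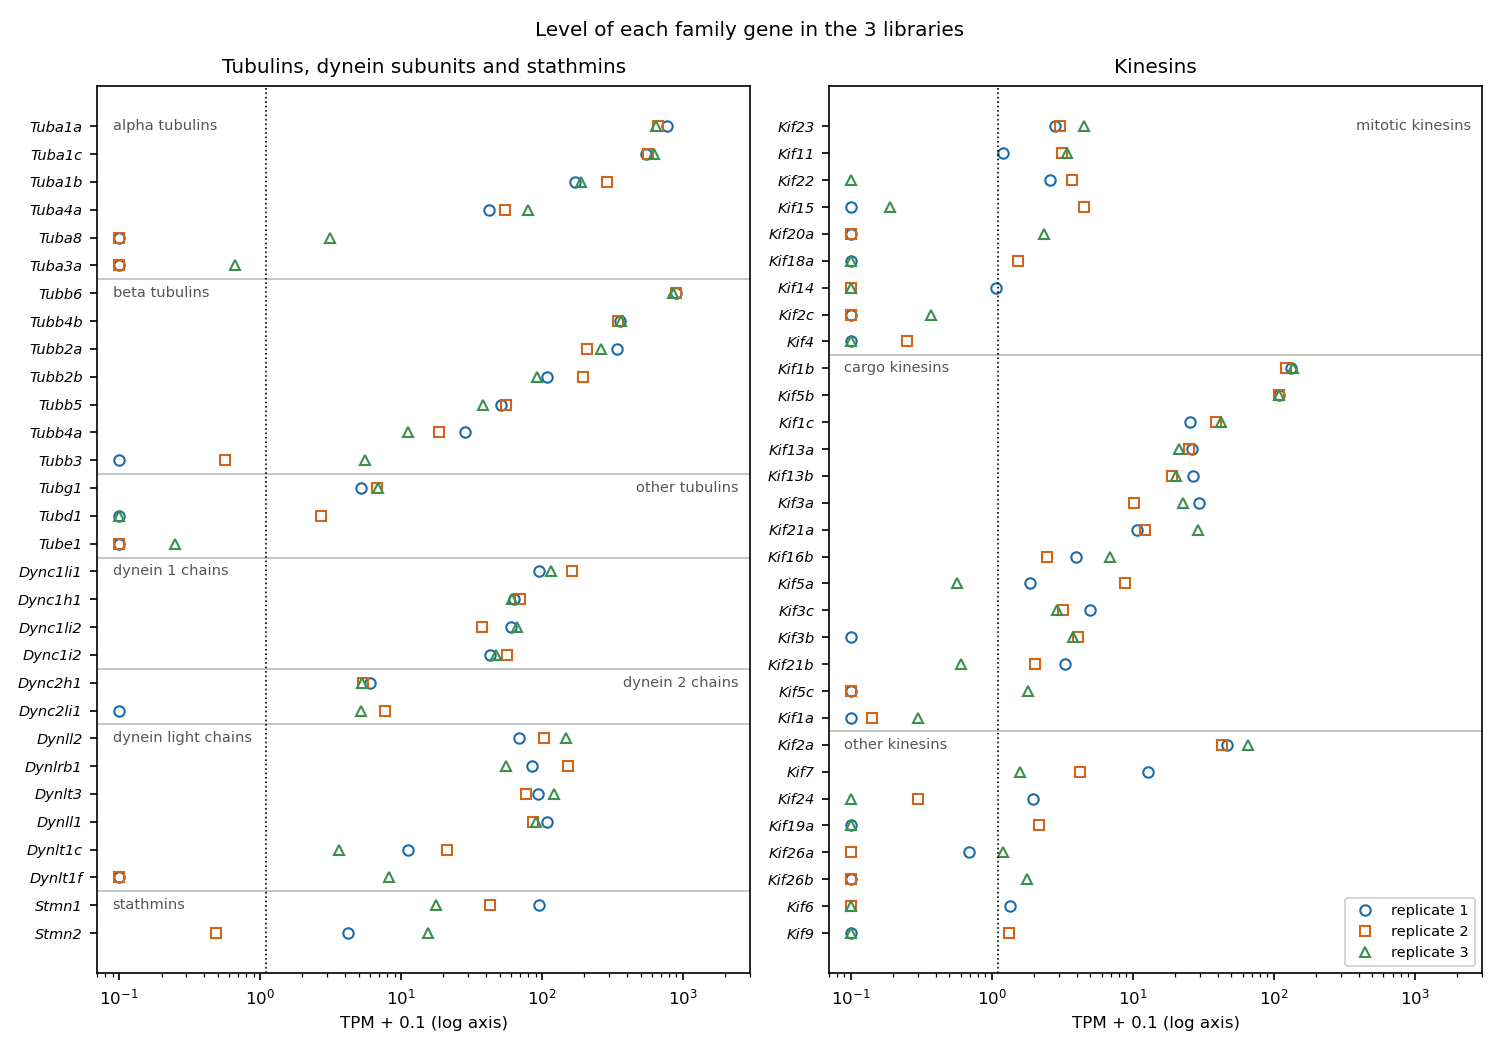
TPM + 0.1 on a log axis for the 61 genes above 0 in at least 1 library, by class, with 1 symbol per replicate; the dotted line marks 1 TPM and symbols at 0.1 are values listed at 0. Tubb6 stays at 846 to 895 TPM, Kif1b and Kif5b lead the kinesins above 100 TPM, and most mitotic kinesins are listed at 0 in at least 1 library.

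Among the kinesins, those that carry cargo held most of the transcript. Of 15 cargo kinesins, 7 lay above 1 TPM, 7 were not decided and Kif17, a motor of neurons and cilia, was listed at 0 in all libraries. Kif1b, which carries mitochondria and vesicles, was at 131, 123 and 137 TPM (130 ± 6.93). Kif5b, the ubiquitous heavy chain of conventional kinesin that positions mitochondria and myonuclei, was at 109.2, 108.9 and 109.6 TPM (109 ± 0.349). Kif1b was the higher of the pair in each library. Kif1c, a vesicle and integrin carrier, was at 25.3, 38.8 and 42.2 TPM. The endosomal motors Kif13a and Kif13b averaged 24.1 ± 2.61 and 21.8 ± 4.18 TPM. Kif21a, which slows microtubule growth, was at 10.6, 12.1 and 28.9 TPM. The ranges of Kif1c, Kif13a, Kif13b and Kif21a overlapped in part, so their order was not fixed over the libraries.

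The neuronal relatives of the leading kinesins were low or listed at 0. Kif1a, the synaptic vesicle motor, was listed at 0, 0.04 and 0.20 TPM beside Kif1b. It was not decided, and lay below 1 TPM under 4 of the alternative settings. Kif5c was listed at 0, 0 and 1.71 TPM and Kif5a at 1.77, 8.67 and 0.47 TPM beside Kif5b. In each library Kif5b and Kif1b were the highest of their families. Nerve and Schwann cell markers summed to 214, 218 and 256 TPM, with 4 of 15 above 1 TPM, of which Ncam1, a gene that muscle cells also use, averaged 114 ± 10.2 TPM. These 4 were 36.4% of the 11 tested in that list, against 60.8% of all genes tested. Of the neuronal markers in that list, Uchl1 was at 6.80, 7.73 and 0 TPM, Nefm at 0.10, 3.23 and 0.13 TPM, Elavl3 at 3.27, 0 and 0 TPM and Snap25 at 0, 1.84 and 0 TPM, none of them decided. Elavl4, Gap43, Nefl and Syt1 were listed at 0 in all libraries. The part of nerve RNA in the levels of Kif5a and Tubb3 was not tested.

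Among the motors of the cilium, Kif3a had the highest mean. Kif3a, the motor subunit of heterotrimeric kinesin that builds cilia, was at 29.3, 10.1 and 22.5 TPM (20.6 ± 9.75) and lay above 1 TPM. Its partner Kif3b was listed at 0, 4 and 3.64 TPM and was not decided, and the alternative partner Kif3c was at 4.85, 3.07 and 2.82 TPM, which lay above 1 TPM only with no variance trend among the alternatives run. Kif3a was higher than Kif3b in 3 of 3 libraries, although the size of the ratio depends on the 0 in replicate 1. Kifap3, the accessory subunit that joins the pair to cargo, was at 0.17, 7.20 and 6.74 TPM. Kif3b and Kifap3 were thus both lowest in replicate 1, where Kif3a was highest. Kif7, the ciliary regulator of Hedgehog signalling, gave 12.8, 4.10 and 1.48 TPM. It was not decided (limma adjusted p = 0.0868) but lay above 1 TPM without replicate 3 and, with all replicates, under robust empirical Bayes. Of the 31-base words of Kif7, 17.4% occur in the antisense gene 9330171B17Rik. Of those of Kif3c, 38.3% occur in the antisense gene 1110002L01Rik. Strand use in counting is not given, so both levels are uncertain to that extent.

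The remaining kinesins were led by Kif2a, which depolymerises microtubule ends, at 46.1, 42.5 and 65.2 TPM (51.3 ± 12.2). It was the 1 of 11 in that class above 1 TPM, with 7 not decided and 3 listed at 0 in all libraries (Kif2b, Kif12 and Kif27). That was 12.5% of the 8 tested, against 60.8% of all genes tested. Of the 31-base words of Kif2a, 22.7% occur in the neighbouring gene Dimt1, so its level is uncertain to that extent. Kif24, Kif19a, Kif26a, Kif26b, Kif6 and Kif9 each averaged under 1 TPM. Kif16b, an endosomal motor, was at 3.88, 2.38 and 6.77 TPM and Kif21b at 3.20, 1.91 and 0.50 TPM, and neither was decided. Kif16b lay above 1 TPM when limma was run with no variance trend or with robust empirical Bayes.

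Spindle kinesins were low or listed at 0. Of 11 mitotic kinesins, 0 lay above 1 TPM in limma's test, also at an unadjusted p under 0.05, 1 lay below, 8 were not decided and 2 (Kif18b and Kif20b) were listed at 0 in all libraries. With no variance trend in the fit, 1 (Kif23) lay above. Together they summed to 7.24, 15.6 and 10.3 TPM, less in each library than Kif5b alone. Kif23, the kinesin of the central spindle in cytokinesis, was the highest at 2.69, 2.93 and 4.43 TPM. Kif11, the motor that separates spindle poles, was at 1.09, 3.03 and 3.30 TPM. Kif22, which pushes chromosome arms outward, was at 2.49, 3.61 and 0 TPM, and Kif15 at 0, 4.40 and 0.09 TPM. Kif23 and Kif11 were the 2 of this class above 0 in each library.

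The remaining mitotic kinesins were above 0 in 1 library each. Kif20a was at 2.24 TPM and Kif2c, which corrects kinetochore attachments, at 0.27 TPM, both in replicate 3. Kif18a was at 1.43 TPM and Kif4 at 0.15 TPM, both in replicate 2, and Kif14 at 0.97 TPM in replicate 1. Of 20 other genes of mitosis, 2 had a 0 in each library and 18 were tested. Of those tested, 5 (27.8%) lay above 1 TPM, against 60.8% of all genes tested, and 2 lay below. The 20 genes summed to 57.4, 108 and 101 TPM, and to 57.3, 87.2 and 41.5 TPM without Birc5, a sum added after the data were seen. The library with the lowest sum thus changed from replicate 1 to replicate 3 when this 1 gene was left out. The highest by mean were Birc5 at 0.09, 21.2 and 59.3 TPM, Top2a at 10.7 ± 3.05 TPM and Bub1b at 8.35 ± 3.26 TPM.

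Every chain needed for a cytoplasmic dynein 1 motor had a member above 1 TPM. Dync1h1, the heavy chain that holds the motor (chromosome 12, 110601452 to 110666945), was at 63.1, 69.5 and 61.4 TPM (64.7 ± 4.28). Dync1i2, the ubiquitous intermediate chain that binds dynactin, was at 42.5, 56.1 and 47.3 TPM (48.6 ± 6.92), while the neuronal intermediate chain Dync1i1 was listed at 0 in all 3 libraries. Of the light intermediate chains, which bind cargo adaptors, Dync1li1 was at 95.3, 163 and 116 TPM and Dync1li2 at 60.6, 37.4 and 66.2 TPM. Their ranges did not overlap, and Dync1li1 was the higher by 0.65, 2.12 and 0.81 on the log2 scale (2.29-fold on average). In replicate 2 Dync1li1 was at its highest and Dync1li2 at its lowest.

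Dynein 2, the motor that returns cargo within cilia, was lower. Its heavy chain Dync2h1 was at 5.96, 5.26 and 5.21 TPM (5.48 ± 0.419) and lay above 1 TPM (limma adjusted p = 0.0157). Dync1h1 exceeded it by 3.38, 3.70 and 3.53 on the log2 scale (11.6-fold). Its light intermediate chain Dync2li1 was listed at 0, 7.64 and 5.14 TPM, which lay above 1 TPM without replicate 1 and not otherwise. Of 13 subunits of the dyneins of motile cilia, 9 were listed at 0 in all libraries and 0 lay above 1 TPM in limma's test, also at an unadjusted p under 0.05, but 1 did without replicate 1. The highest were the light chain Dnal1 at 0, 5.28 and 5.20 TPM, Dnaic2 at 5.93, 3.49 and 0.88 TPM and Dnah10 at 1.98, 0 and 0.24 TPM. The heavy chains Dnah1, Dnah2, Dnah5, Dnah7a, Dnah8, Dnah9 and Dnah11 were all among those at 0.

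Dynein light chains were led by 4 genes of like level. Dynll2 was at 68.4, 103 and 147 TPM and Dynll1, the other LC8 chain that joins many complexes besides dynein, at 108, 86.6 and 90.7 TPM. Neither was the higher throughout: Dynll1 minus Dynll2 was 0.65, -0.26 and -0.70 as a log2 ratio (p = 0.75 by the exact sign-flip permutation test, two-sided, n = 3). Dynlrb1, a roadblock chain, was at 84.6, 152 and 55.0 TPM, and its paralogue Dynlrb2 was listed at 0 in all libraries. Dynlt3, a Tctex chain on the X chromosome, was at 93.3, 76.5 and 121 TPM. The ranges of these 4 genes overlapped, so no order among them was fixed.

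The Tctex-type 1 genes are near-identical copies on chromosome 17. Dynlt1c was at 11.2, 21.3 and 3.55 TPM and lay above 1 TPM (limma adjusted p = 0.00112), Dynlt1f was listed at 0, 0 and 8.17 TPM, and Dynlt1a and Dynlt1b were listed at 0 in all libraries. At least 83.7% of the 31-base words of each of these 4 genes occur in another gene. Their levels are therefore uncertain singly, and their sum was 11.2, 21.3 and 11.7 TPM. In replicate 3, Dynlt1f was listed above Dynlt1c.

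Of the genes of the set with a mean at least as high as its own, stathmin 1 varied most between libraries. Stmn1, which sequesters tubulin dimers and is best known from dividing and neural cells, was at 94.7, 42.7 and 17.7 TPM (51.7 ± 39.2), and lay above 1 TPM (limma adjusted p = 7.86e-07). Replicate 1 was 5.31 times replicate 3 on the TPM + 0.1 scale. Stmn2, a stathmin of neurons, gave 4.14, 0.39 and 15.3 TPM. It was not decided (limma adjusted p = 0.310) but lay above 1 TPM without replicate 2. Stmn3 and Stmn4, also neuronal, were listed at 0 in all 3 libraries. The order of libraries differed between them, since Stmn1 was highest in replicate 1 and Stmn2 in replicate 3. Stmn1 shares 37.8% of its 31-base words with the processed pseudogene Gm11223, and the part of such reads in its spread was not tested.

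Spread between libraries was set beside that of genes of the same level. Among the 45 genes of the set with a mean of at least 1 TPM, the SD of log2(TPM + 0.1) was above the median of their level for 21, or 46.7%, against 49.98% of all genes by construction. For 6 of the 45, namely Tuba1b, Tubb2a, Tubb2b, Dynll2, Dynlrb1 and Stmn1, it exceeded the 90th percentile of that level. By construction, 90% of all genes of a level do not exceed it, and Tubb2a did so narrowly (0.3622 against 0.3616). Of the 31-base words of Tuba1b, Tubb2a, Tubb2b and Stmn1, 85.9%, 56.4%, 45.9% and 41.4% occur in other genes, against 0% for Dynll2 and Dynlrb1. The part of shared reads in these spreads was not tested. At the other end, Kif5b had an SD of 0.0046, Tubb4b 0.037 and Tubb6 0.046. Of the 32 genes of the set averaging at least 5 TPM, 4 (12.5%) differed over 4 times between their highest and lowest library: Stmn2 (31.5 times), Kif7 (8.16 times), Dynlt1c (5.85 times) and Stmn1. Of all 8516 genes at that level, 1503 (17.6%) did. Of these 4, Stmn1 was the 1 whose SD exceeded the 90th percentile of its level.

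**Figure D4:**
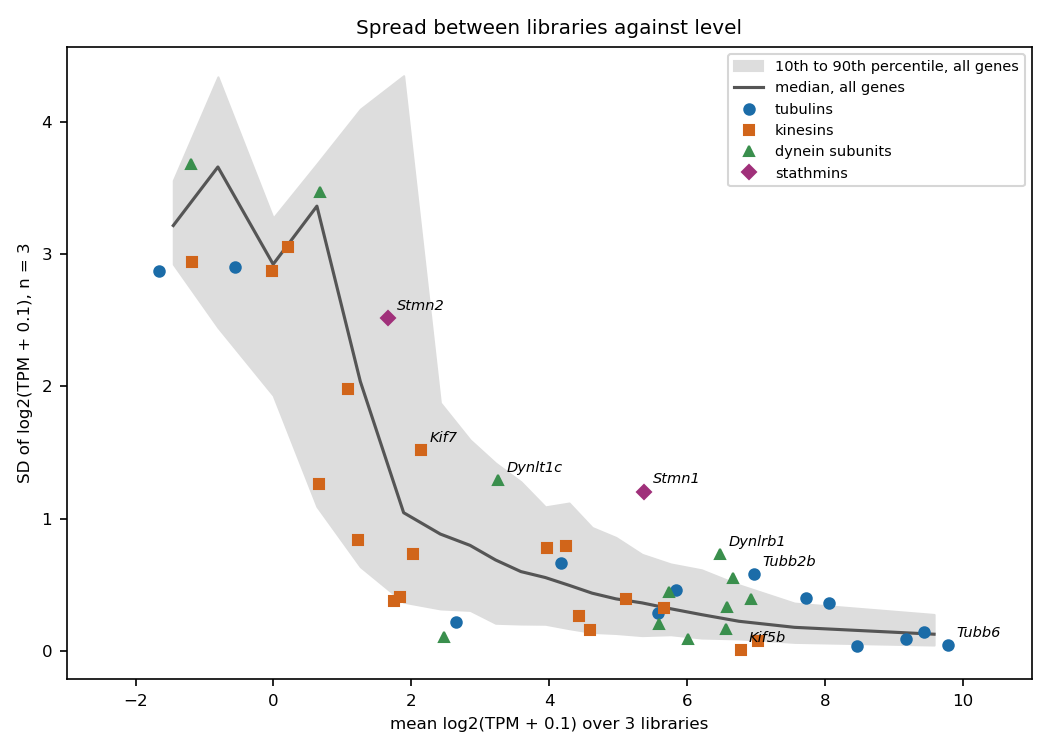
SD of log2(TPM + 0.1) over the 3 libraries against the mean level for the 45 genes of the set with a mean of at least 1 TPM; the line is the median and the grey band the 10th to 90th percentile of 11318 genes in 20 level bins. Stmn1, Dynlrb1 and Tubb2b lie above the band, while Kif5b and Tubb6 lie below the median.

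Fibre markers were set beside the alpha tubulins of muscle. Tuba4a, at 42.2, 54.5 and 80.1 TPM, and Tuba8, at 0, 0 and 3.04 TPM, were both highest in replicate 3. The fibre genes creatine kinase Ckm, at 6.56, 0 and 21.6 TPM, and Myh4, at 3.95, 2.97 and 7.07 TPM, were also highest there, while skeletal actin Acta1 was at 34.6, 17.2 and 34.0 TPM. Tuba4a was lowest in replicate 1 and the fibre genes in replicate 2. The part of fibre RNA in these levels was not tested.

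Most partners of dynein lay above 1 TPM. Against 60.8% of all genes tested, all 9 dynactin genes lay above 1 TPM. Their median was 40.5 TPM, with sums of 345, 379 and 393 TPM. Actr10, of the pointed end, averaged 80.4 ± 21.3 TPM, dynamitin Dctn2 59.4 ± 19.5 TPM and the filament actin Actr1a 57.7 ± 11.5 TPM. Of 14 dynein adaptors and regulators in the table, 11 (78.6%) lay above 1 TPM (median 35.0 TPM). The other 3 were not decided: Spdl1 at 9.95, 0 and 2.01 TPM, Bicd1 at 0.77, 1.28 and 4.02 TPM and Hook1 at 1.85, 2.75 and 1.29 TPM. The regulator Ndel1 was at 266, 208 and 281 TPM, the scaffold Spag9 at 231 ± 11.8 TPM and Lis1 (Pafah1b1) at 164 ± 21.2 TPM, each above Dync1h1 in every library.

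Kinesin light chains, accessory subunits and C-terminal kinesins, the last of which are motors themselves, were listed together. Of 8 kinesin light chains, C-terminal kinesins and accessory subunits, 2 (25.0%) lay above 1 TPM (median 4.46 TPM), against 60.8% of all genes tested. That share was smaller than in the lists of dynein partners. Other genes that act with kinesin, such as Map7d1 below, are in other lists, so the contrast depends on how genes were divided. Klc1, the light chain that links conventional kinesin to cargo, was at 87.6, 113 and 52.2 TPM (84.3 ± 30.6), and its range spanned that of Kif5b. The C-terminal motor Kifc2 averaged 8.63 ± 4.30 TPM and the light chain Klc4 4.75 ± 3.02 TPM.

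Genes that fold tubulin were among the most abundant of the lists. Of 19 chaperonin, prefoldin and tubulin cofactor genes, 17 (89.5%) lay above 1 TPM, against 60.8% of all genes tested. The 19 had a median of 115 TPM, with sums of 4261, 4571 and 4465 TPM. The chaperonin subunits Cct2 (815 ± 7.14 TPM), Cct5 (572 ± 88.8 TPM) and Cct8 (565 ± 24.6 TPM) led. The chaperonin also folds actin and other proteins, so the list is not particular to tubulin.

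Proteins that bind or modify microtubules were mostly measured too. Of 25 microtubule-associated proteins, 21 lay above 1 TPM and Camsap3 was listed at 0 in all libraries (median of the list 14.7 TPM). Map7d1, a kinesin recruiter, was at 646, 557 and 749 TPM (651 ± 96.5), the plus-end protein Mapre1 at 168 ± 6.60 TPM and Map2, best known from dendrites, at 154, 158 and 155 TPM (155 ± 1.99). Of 18 tubulin-modifying and severing enzymes, 10 lay above 1 TPM, 1 below and 2 (Fign and Fignl1) were listed at 0 in all libraries. The deacetylase Sirt2 averaged 130 ± 23.6 TPM, the severing subunit Katna1 96.2 ± 19.6 TPM and the ligase Ttll4 45.7 ± 16.8 TPM. Against these, 60.8% of all genes tested lay above 1 TPM, and these lists are described by counts only.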

How the data were processed

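RNA from sorted ZsGreen-positive cells was sequenced as 3 libraries of 1 group, numbered by their titles. The authors deposited 1 table of TPM, renormalised without mitochondrial genes (per the table's name; 0 symbols start with mt-), with column sums between 999999.85 and 1000000.30. Per the submitters' processing notes, the build was mm10 and the tools CASAVA 1.8, Bowtie 0.12.9 and RSEM 1.2.3; the sources used here do not give their roles, settings, annotation or strand use.

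Levels were tested on log2(TPM + 0.1) with limma 3.58.1 in R 4.3.3: an intercept against 1 TPM, two-sided, with a variance trend; p-values were adjusted over 12822 genes after Benjamini and Hochberg (threshold 0.05). The scale understates folds of low genes. The test was checked on simulated data. Positions and shared words (31 bases, both strands) are from GENCODE M21 on GRCm38, the assembly of mm10; all 76 symbols matched. Members, lists and pairs were chosen with earlier results of these data known. Named genes are all 76, the 3 highest of each other list and both genes of each pair. Genes that differ over 4 times between libraries at a mean of at least 5 TPM are named too. Others (markers at 0, fibre markers, Pax7, Calcr, Kifap3, Ncam1, and listed genes named for being at 0) were chosen after their values were seen. Alternatives covered pseudocounts, filters, the variance model and each library left out. Some sequences are not reported here.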

Additional observations from a re-analysis of the deposited data

How the results depend on the processing

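Each of the 30 genes above 1 TPM remained above it under all 9 alternatives, which gave between 30 and 33. The count below 1 TPM, 2, was 0 with a pseudocount of 0.01, 0 for genes averaging at least 0.1 TPM and 0 without any 1 replicate (lowest and highest 0). Over the whole table the count, 279 in the main fit, was 3, 0 and 0 under these settings. The filter also removed Tube1 and Kif4, which average 0.05 TPM. These settings therefore cannot show whether the 2 calls are stable. The count for the set was 4 with a pseudocount of 1, with no variance trend or with robust empirical Bayes. It was 20 with no filter, where genes listed at 0 enter the test. Ratios to genes near 0 followed the pseudocount. With 0.01 and 1, Kif1b over Kif1a was 11.43 and 6.93 on the log2 scale (9.66 with 0.1), and Kif2a over Kif2c was 10.70 and 5.57 (8.35 with 0.1). With a pseudocount of 1, Dync1h1 over Dync2h1 was 3.34 (3.54 with 0.1). Dynll1 over Dynll2, -0.10, ranged from -0.48 to 0.20 when 1 replicate was left out and turned positive without replicate 3.

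As a percent of the TPM left without the 100 most abundant genes, none of which belongs to these families, shares rose by construction. They were 0.674% for the whole set (0.448% of all TPM), 0.234% for alpha and 0.256% for beta tubulins, 0.00107% for other tubulins, 0.00166% for mitotic, 0.0565% for cargo and 0.00913% for other kinesins. Dynein 1 chains held 0.0440%, dynein 2 chains 0.00146% and dynein light chains 0.0616%. The number of genes with a spread over the median of their level stayed within 1.5 times with a pseudocount of 1. Depth is unknown, so no detection limit can be given for genes listed at 0. No paired analysis was possible because the libraries form 1 group.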
